A study of Mus musculus with 2 samples.

Results

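The genes described here encode the aminoacyl-tRNA synthetases, the enzymes that attach each amino acid to its tRNA. They were chosen by symbol, as every gene of the table named with an amino acid letter followed by ars, with an added 2 for the mitochondrial enzyme, together with Eprs, Farsa and Farsb. This gave 37 genes of 10992, of which 20 encode cytosolic enzymes and 17 have names ending in 2 and encode mitochondrial enzymes. All 37 reached 1 FPKM in at least 1 library. FPKM counts sequenced fragments relative to the length of the transcript and to all fragments of the library.

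RNA was sequenced from cells labelled as mouse neonatal cardiomyocytes, the contractile cells of the newborn heart. There were 2 libraries, 1 of cells transfected with a negative control and 1 of cells transfected with an antagomir, an antisense oligonucleotide, against the piRNA FERPIR (DQ69304). PIWI proteins bind piRNAs, which are short RNAs. The treatment label reads PBS for both libraries, and no source used here gives strain, age, dose or time. FERPIR had no value in the table, so its knockdown was not measured.

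With 1 library per group no difference has a replicate check, and no test or p-value is given. The FPKM summed to 295404 for the control and 312806 for the antagomir, and their read depth is unknown. Of 14 cardiomyocyte marker genes 4 had values, summing to 26.4 FPKM with the control and 48.7 FPKM with the antagomir, and Myh6, Actn2 and Ttn were among those with no value. Of these 4 cardiomyocyte markers 3 were higher with the antagomir and 1 was lower. Of 10 fibroblast markers 6 had values, summing to 548 and 341 FPKM, of which Col3a1 alone had 358 and 249 FPKM. Of these 6 fibroblast markers 5 were lower with the antagomir and 1 was higher. Of 4 smooth muscle markers 3 had values, Acta2 with 1305 and 845 FPKM, Tagln with 18.2 and 37.8 FPKM, and Cnn1 with 1.79 and 2.91 FPKM. None of 5 endothelial, 1 of 5 leukocyte (Lyz2) and 1 of 4 erythroid markers (Hba-a1) had values, and no marker with a value was listed at 0. The part of these differences in the results below was not tested, and in bulk RNA fewer cells of a type and less RNA per cell cannot be told apart.

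Each synthetase recognises 1 amino acid and its tRNAs, joins them at the cost of ATP, and so supplies the ribosome with charged tRNA. The cytosol and the mitochondrion each need a full set, because mitochondria translate their own small genome, and in heart muscle that genome encodes core subunits of the respiratory chain. For most amino acids a separate nuclear gene encodes the mitochondrial enzyme. Gars and Kars instead encode both forms, and mitochondria make glutaminyl-tRNA by an indirect route through a glutamyl intermediate. Most cytosolic synthetase genes are known targets of ATF4, the transcription factor that rises when eIF2alpha is phosphorylated under stress or amino acid shortage.

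The cytosolic synthetase genes had lower FPKM with the antagomir for the most part, whereas the mitochondrial ones were divided between lower and higher. The median log2 ratio, the log2 of (antagomir FPKM + 1) over (control FPKM + 1), was -0.44 over the 20 cytosolic genes and -0.05 over the 17 mitochondrial genes, beside -0.05 over all 10201 genes that reached 1 FPKM. Of the cytosolic genes 17 had a log2 ratio below 0 and 3 above. Of the mitochondrial genes 9 were below 0 and 8 above. At least 1.5-fold lower were 6 of 20 cytosolic genes (Wars, Aars, Iars, Eprs, Yars and Gars) and 0 of 17 mitochondrial genes, against 13.4% of all genes, and 1, Wars, was at least 2-fold lower, against 3.79%. The count of 6 depended on the processing, being 9 with values rescaled to TPM, against 20.0% of all genes, and 3 with the trend over principal transcript length and GC content removed, against 12.3%. None of the 37 was 1.5-fold or 2-fold higher, against 10.8% and 2.88% of all genes, although Lars2 passed 1.5-fold higher as TPM (a log2 ratio of 0.64), with either length trend removed (0.62 and 0.64) and with smaller pseudocounts. Among the 4299 genes with a mean FPKM inside the range of the cytosolic members, 15.0% were 1.5-fold lower and their median log2 ratio was -0.02. Among the 5302 genes inside the range of the mitochondrial members these were 12.4% and -0.08.

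**Figure D1:**
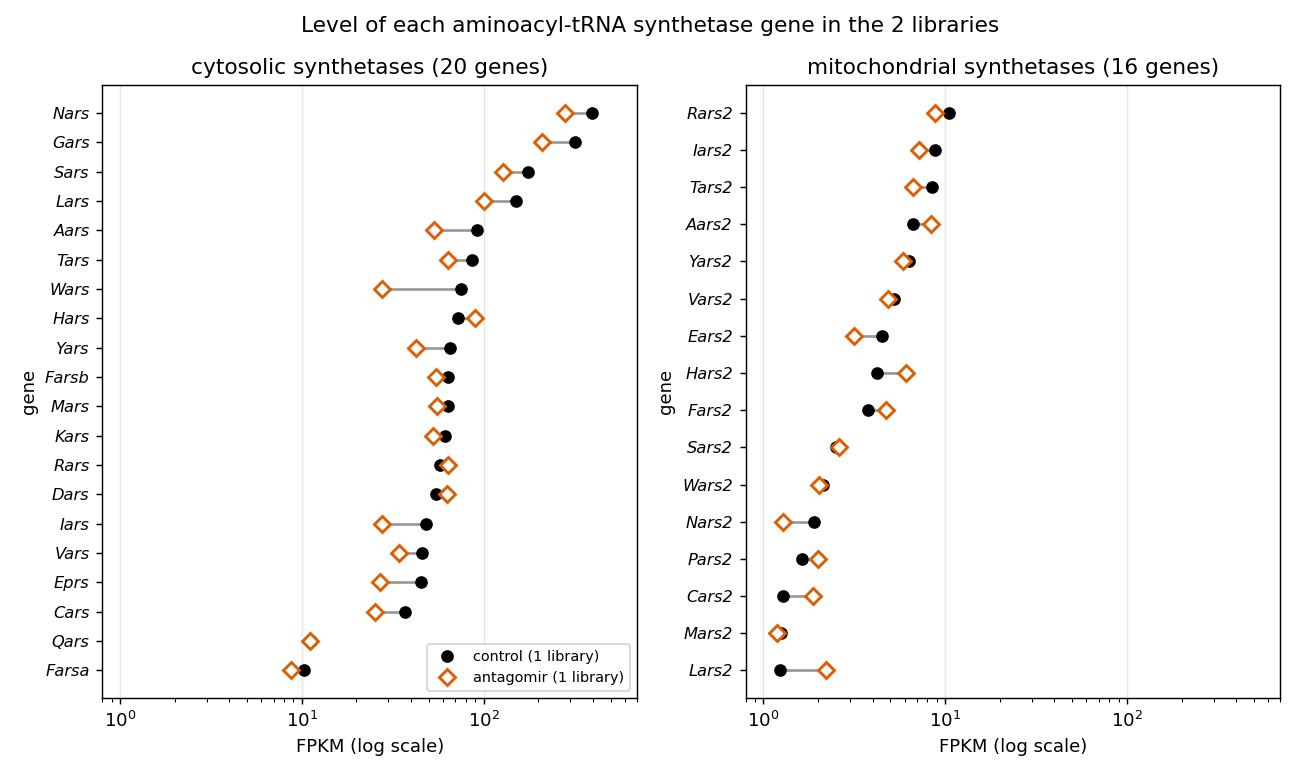
FPKM on a log axis of 20 cytosolic (left) and 16 mitochondrial (right) synthetase genes, with 1 filled circle for the control library, 1 open diamond for the antagomir library and a line joining them; there are no error bars because each group is 1 library. Cytosolic genes lie between 8.75 and 396 FPKM and mitochondrial genes between 1.19 and 10.6 FPKM, and Wars has the longest line, from 75.2 to 27.6 FPKM.

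The cytosolic genes were expressed at higher levels per transcript length than the mitochondrial ones. In the control library the cytosolic genes ranged from 10.2 FPKM (Farsa) to 396 FPKM (Nars), with a median of 63.7 FPKM, and the mitochondrial genes from 1.24 FPKM (Lars2) to 10.6 FPKM (Rars2), with a median of 4.10 FPKM. The ranges met only at Rars2, which stood above Farsa. Summed over the cytosolic genes the level was 1934 FPKM with the control and 1418 FPKM with the antagomir, so that the antagomir sum was 73.3% of the control sum. Summed over the mitochondrial genes it was 74.7 FPKM in both. Nars, Gars, Sars and Lars, the 4 most abundant, made up 53.9% of the cytosolic sum in the control library and 63.1% of its difference.

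Wars, which encodes tryptophanyl-tRNA synthetase and is also known as an interferon-induced gene, stood lowest of all 37. It lies on chromosome 12 from 108860030 to 108894174 (GRCm38). It had 75.2 FPKM with the control and 27.6 FPKM with the antagomir, 2.66-fold lower, a log2 ratio of -1.41. The next gene, Aars, was at -0.77, so that Wars was well apart from the other 36. Its log2 ratio lay between -1.52 and -1.36 under all other scalings, pseudocounts and length corrections tried, and its exons overlap no other gene.

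Aars, Iars and Eprs followed. Aars encodes alanyl-tRNA synthetase, an enzyme that also edits mischarged tRNA, and lies on chromosome 8 from 111033144 to 111057664. It had 91.9 FPKM with the control and 53.3 FPKM with the antagomir, 1.71-fold lower. On the same strand 1326 of its 9282 exonic bases are shared with Exosc6, a subunit of the RNA exosome, which was listed at 0.03 and 9.95 FPKM, the opposite direction. No source used here says how fragments in the shared bases were divided between the genes, so both values are uncertain. Iars, the isoleucyl enzyme (chromosome 13, 49682100 to 49734267), had 48.0 and 27.8 FPKM, 1.70-fold lower. Eprs, a fused enzyme that charges both glutamate and proline (chromosome 1, 185363044 to 185428360), had 45.4 and 26.9 FPKM, 1.67-fold lower. In the antagomir library Iars and Eprs stood, with Cars and Wars, among the less abundant cytosolic genes, above Qars and Farsa.

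Yars and Gars were the remaining genes past 1.5-fold. Yars, the tyrosyl enzyme (chromosome 4, 129189760 to 129219607), had 65.5 FPKM with the control and 42.7 FPKM with the antagomir, 1.52-fold lower. Gars, which supplies glycyl-tRNA synthetase to both compartments (chromosome 6, 55038007 to 55079500), had 320 and 210 FPKM, also 1.52-fold lower. Both sat close to the limit, and Lars, with 150 and 100.1 FPKM and 1.49-fold lower, was just outside it. Lars encodes leucyl-tRNA synthetase, which is also known as a leucine sensor upstream of mTORC1.

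A further 5 cytosolic genes had log2 ratios from -0.53 to -0.41. Nars, the asparaginyl enzyme and the most abundant of all, had 396 FPKM with the control and 279 FPKM with the antagomir, a log2 ratio of -0.51. Sars, the seryl enzyme, had 176 and 128 FPKM (-0.46). Cars, the cysteinyl enzyme, had 37.1 and 25.3 FPKM (-0.53). These were 1.37-fold to 1.45-fold lower and kept that direction under every scaling tried. Tars, the threonyl enzyme, had 86.2 and 63.7 FPKM (-0.43). Vars, the valyl enzyme, which binds the elongation factor eEF1, had 46.1 and 34.4 FPKM (-0.41).

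Smaller log2 ratios were found for Kars, Farsb, Farsa, Mars and Qars. Kars, the lysyl enzyme of both compartments, had 61.6 FPKM with the control and 52.4 FPKM with the antagomir, a log2 ratio of -0.23. Farsb and Farsa encode the 2 subunits of the cytosolic phenylalanyl enzyme and had 64.1 and 54.9 FPKM, and 10.2 and 8.75 FPKM. The subunits thus differed in level but not much in log2 ratio, which was -0.22 for Farsb and -0.21 for Farsa. Mars, the methionyl enzyme that also charges the initiator tRNA, had 63.3 and 55.8 FPKM (-0.18). It shares 68 of its 3423 exonic bases, on the opposite strand, with Ddit3, which encodes the stress factor CHOP and had 609 and 117 FPKM. Since no source used here states whether strand was used, the Mars value is uncertain. Qars, the glutaminyl enzyme, had 11.3 and 11.1 FPKM, and its log2 ratio of -0.01 turned positive when ratios were centred on the median of all genes or the length trend was removed.

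Only Rars, Dars and Hars among the cytosolic genes had higher FPKM with the antagomir, and none reached 1.5-fold. Rars, the arginyl enzyme, had 57.8 FPKM with the control and 63.5 FPKM with the antagomir, a log2 ratio of 0.13. Dars, the aspartyl enzyme, had 55.0 and 62.8 FPKM (0.19). Hars, the histidyl enzyme, had 72.5 and 89.6 FPKM (0.30). All 3 stayed above 0 under every scaling tried, with Rars lowest at 0.05. Hars shares 195 exonic bases with Hars2, its mitochondrial counterpart, which lies head to head with it on the opposite strand and was also higher.

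The mitochondrial genes formed no single direction. At the upper end Lars2, the leucyl enzyme, had 1.24 FPKM with the control and 2.21 FPKM with the antagomir, a log2 ratio of 0.52, and 1.79-fold higher when no pseudocount was added. Hars2, the histidyl enzyme, had 4.24 and 6.12 FPKM (0.44). It shares 195 of its 4279 exonic bases, on the opposite strand, with Hars, which had 72.5 and 89.6 FPKM. Since no source used here states whether strand was used, the Hars2 value is uncertain. Lars2 and Hars2 both stood below the median level of all genes in either library. Cars2, the cysteinyl enzyme, had 1.28 and 1.88 FPKM (0.34), and Aars2, whose human counterpart is known for infantile cardiomyopathy, had 6.67 and 8.40 FPKM (0.29). Fars2 had 3.77 and 4.73 FPKM (0.26) and Pars2 had 1.63 and 2.01 FPKM (0.20). These phenylalanyl and prolyl enzymes, like the 4 before them, were higher under every scaling tried. Cars2 shares 422 of its 7237 exonic bases, on the opposite strand, with Naxd, which had 13.1 and 8.79 FPKM. Of the 5747 exonic bases of Fars2, 115 are shared with Lyrm4 (14.4 and 11.6 FPKM) and 501 with Nrn1 (0.66 and 0.68 FPKM). Both of these also lie on the opposite strand, so the Cars2 and Fars2 values are uncertain too.

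At the lower end Ears2, the mitochondrial glutamyl enzyme, had 4.49 FPKM with the control and 3.15 FPKM with the antagomir, a log2 ratio of -0.41. Nars2, the asparaginyl enzyme, had 1.90 and 1.28 FPKM (-0.35). Tars2, the threonyl enzyme, had 8.49 and 6.65 FPKM (-0.31). Iars2, Rars2, Vars2 and Yars2 had log2 ratios of -0.26, -0.25, -0.09 and -0.09, and these 7 genes were lower under every scaling tried. Iars2 shares 2034 of its 8885 exonic bases with Rab3gap2 on the opposite strand, which had 9.49 and 6.83 FPKM, so its value is uncertain. Wars2 (2.14 and 2.02 FPKM), Mars2 (1.26 and 1.19 FPKM) and Sars2 (2.51 and 2.60 FPKM) had log2 ratios of -0.06, -0.05 and 0.04, and each changed sign under at least 1 scaling or length correction. At levels this low the pseudocount of 1 shrinks every ratio, and with 0.1 in its place the mitochondrial median was -0.08.

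**Figure D2:**
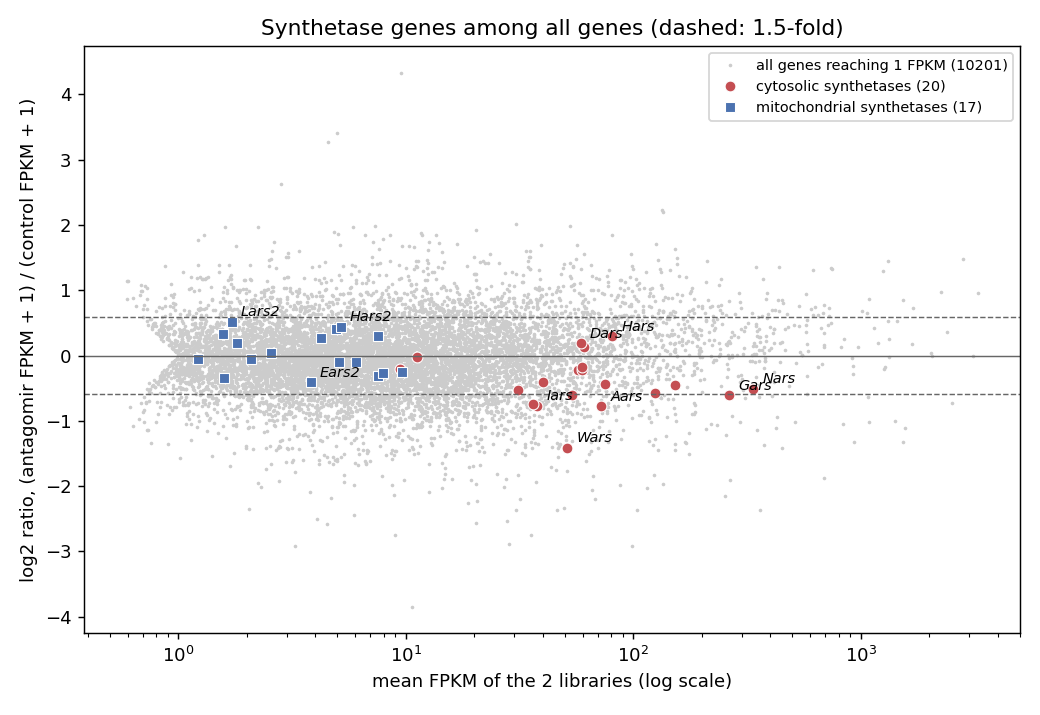
Log2 ratio (vertical) against the mean FPKM of the 2 libraries (horizontal, log axis) for 10201 genes in grey, with cytosolic synthetases as circles and mitochondrial ones as squares; dashed lines mark 1.5-fold. The circles lie mostly below 0, with 6 under the lower dashed line, and no square passes either line.

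The cytosolic and mitochondrial enzymes of 1 amino acid can be set side by side. Of 17 such pairs, with Eprs used for both glutamate and proline and the mean of Farsa and Farsb used for phenylalanine, the cytosolic log2 ratio was the lower in 16. The median difference, cytosolic minus mitochondrial, was -0.48 over the pairs. The widest gaps were for tryptophan (-1.41 for Wars and -0.06 for Wars2), leucine (-0.58 for Lars and 0.52 for Lars2) and alanine (-0.77 for Aars and 0.29 for Aars2). In the leucine, alanine, proline, cysteine, serine and phenylalanine pairs the cytosolic gene was lower and the mitochondrial gene higher, Sars2 only narrowly. Among these the Aars, Cars2 and Fars2 values are uncertain because of the exon overlaps given above. Arginine was the exception, with Rars at 0.13 and Rars2 at -0.25. Without a pseudocount asparagine also turned, with a difference of 0.06. Threonine turned narrowly with the trend over principal transcript length and GC content removed, with Tars at -0.30 and Tars2 at -0.31. The cytosolic gene had 13.8 times the FPKM of its mitochondrial counterpart in the median pair of the control library and 10.9 times in the antagomir library, with a range from 5.46 (isoleucine) to 208 (asparagine) in the control. The difference between the groups was not tested, since genes are not replicates of a condition.

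**Figure D3:**
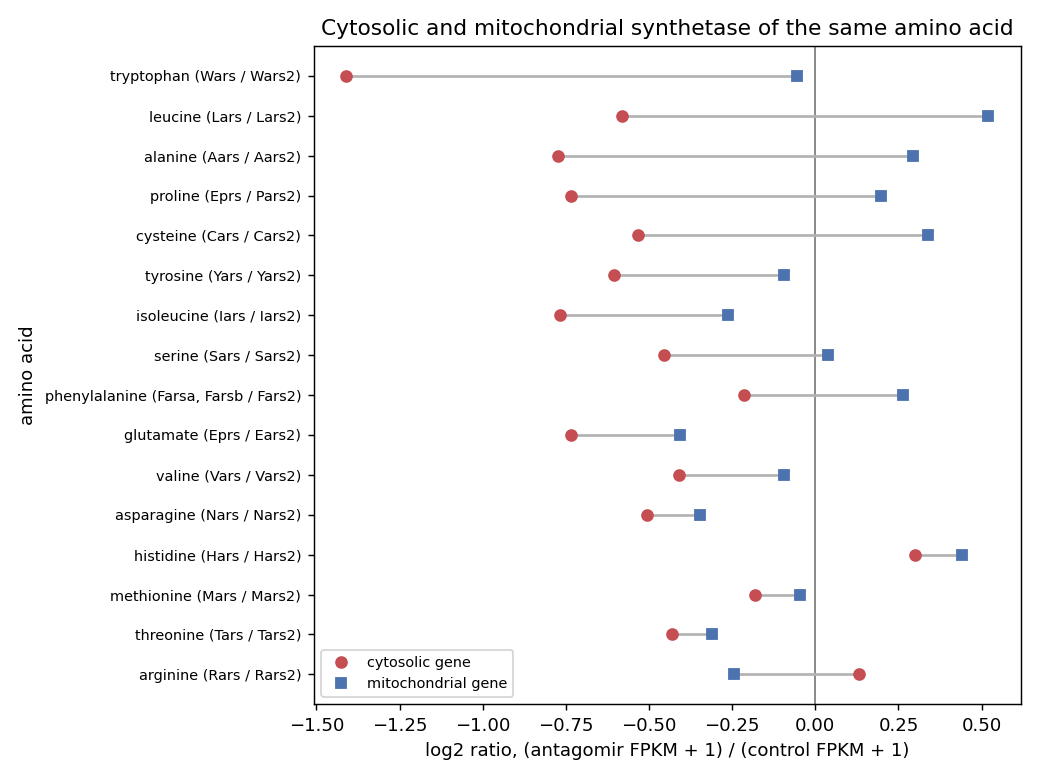
Log2 ratio of the cytosolic gene (circle) and the mitochondrial gene (square) for 16 amino acids, ordered by the gap between them. The circle lies left of the square for all but arginine.

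Within the cytosolic set the genes were also grouped by features that the choice of genes did not use. Synthetases belong to 2 unrelated structural classes. The 10 cytosolic genes of class I had a median log2 ratio of -0.56, with 4 of them 1.5-fold lower. The 10 of class II had a median of -0.33, with 2 of them 1.5-fold lower, against 13.4% of all genes. Eprs was counted in class I for its glutamyl part, and with it counted in class II as well, for its prolyl part, that median was -0.43, with 3 of 11 genes 1.5-fold lower. Among mitochondrial genes the medians were -0.09 over 9 of class I and 0.23 over 8 of class II. Of the cytosolic enzymes 8 (those of Eprs, Iars, Lars, Mars, Qars, Rars, Kars and Dars) are held in the multi-synthetase complex. Their genes had a median of -0.20 and spread from -0.77 (Iars) to 0.19 (Dars), and the 12 outside the complex had a median of -0.48. Genes of the complex thus lay on both sides of 0, and neither split was tested. The scaffold genes of the complex, Aimp1, Aimp2 and Eef1e1, had 40.6 and 45.8, 32.0 and 32.4, and 22.1 and 18.3 FPKM with the control and antagomir libraries, with log2 ratios of 0.17, 0.02 and -0.26.

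Transcript length moved with the log2 ratio. Across all 10192 genes with an annotated length Spearman's rho was -0.30, and across the 20 cytosolic synthetases it was -0.56, as a description over genes that share the same 2 libraries. Rars, Dars and Hars, the cytosolic genes with higher FPKM, were among the 6 whose longest annotated transcript is under 2500 nucleotides, and the median of these 6 was -0.04. The other 14 had a median of -0.52, and all 14 were below 0, Qars only as far as stated above. Over all genes the medians on either side of 2500 nucleotides, a limit chosen after the values were seen, were 0.15 and -0.13. By the length of the principal transcript, the one annotated as the main isoform, rho was -0.46 over the cytosolic genes, and the 8 shorter ones, Wars now among them, had a median of -0.21, against -0.52 over the 12 longer ones. Over the mitochondrial genes rho was -0.25 by the longest and 0.01 by the principal transcript. With the trend over length and GC content removed from all genes, the cytosolic median was -0.42 and the mitochondrial one 0.07, and 4 of 20 cytosolic genes (Wars, Aars, Iars and Gars) were 1.5-fold lower, against 12.3% of all genes. The gap between the groups was then -0.48, beside -0.40 before. The exons of 6 cytosolic and 8 mitochondrial members overlap another gene, and without them the medians were -0.44 over 14 genes and -0.05 over 9.

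**Figure D4:**
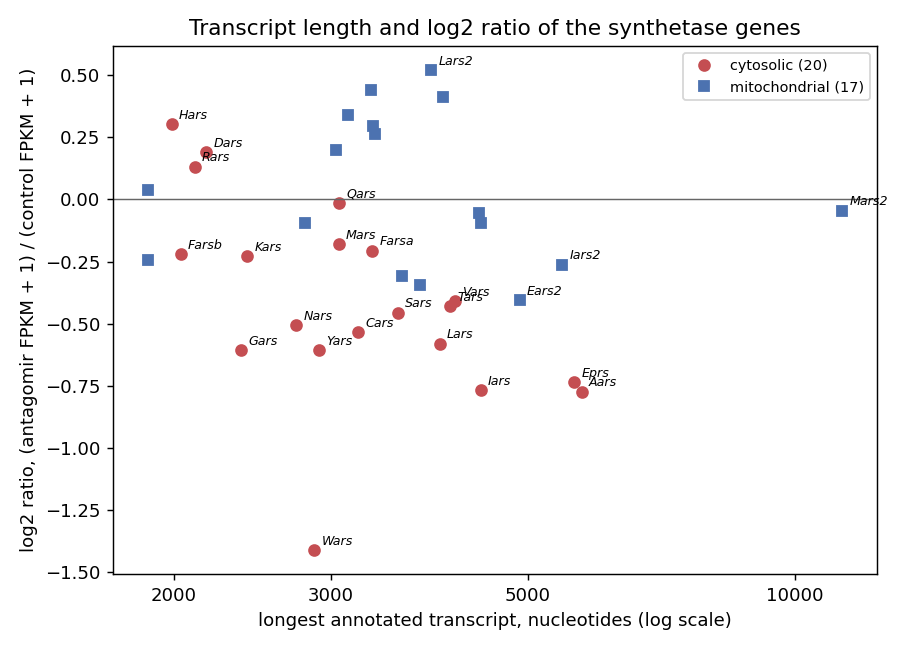
Log2 ratio against the length of the longest annotated transcript (log axis) for cytosolic (circles) and mitochondrial (squares) synthetase genes. The 3 circles above 0, Hars, Dars and Rars, lie at the short end, and Wars lies far below other genes of its length.

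Promoter sequences show another feature shared by part of the cytosolic set. ATF4 acts as a dimer with C/EBP or related factors on elements of the form TGATGNAAN, where N is any base. RefSeq promoters on GRCm38.p6, from 250 bases before to 50 after the start, were matched for 27 of the 37 genes. Among those with no entry were Cars, Hars, Lars, Nars, Rars, Vars and Wars. On either strand TGATGNAAN was found in 5 of 13 cytosolic promoters (Aars, Gars, Iars, Tars and Yars) and in the promoters of 0 of 14 mitochondrial genes, whereas it was in 2.23% of the 10870 promoters of genes in the table and 3.95% of all 32851. The 5 promoters are shown because they carry the match, in capitals, and that of Dars because it has none and its gene had higher FPKM. Dars is not typical of the cytosolic genes without a match, since 7 of those 8 had a log2 ratio below 0.
Aars, chr8:111033592-111033891, plus strand: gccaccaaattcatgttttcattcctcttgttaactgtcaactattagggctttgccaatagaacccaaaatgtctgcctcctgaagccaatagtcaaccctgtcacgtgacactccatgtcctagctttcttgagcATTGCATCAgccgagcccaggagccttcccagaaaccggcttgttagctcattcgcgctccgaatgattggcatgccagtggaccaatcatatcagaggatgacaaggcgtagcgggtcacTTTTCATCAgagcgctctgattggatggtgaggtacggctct
Gars, chr6:55037751-55038050, plus strand: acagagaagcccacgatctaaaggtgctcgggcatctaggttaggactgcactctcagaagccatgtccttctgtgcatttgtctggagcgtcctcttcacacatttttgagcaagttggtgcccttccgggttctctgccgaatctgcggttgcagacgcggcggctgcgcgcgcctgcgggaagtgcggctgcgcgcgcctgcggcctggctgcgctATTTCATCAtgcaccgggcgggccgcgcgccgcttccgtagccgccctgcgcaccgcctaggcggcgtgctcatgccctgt
Iars, chr13:49681880-49682179, plus strand: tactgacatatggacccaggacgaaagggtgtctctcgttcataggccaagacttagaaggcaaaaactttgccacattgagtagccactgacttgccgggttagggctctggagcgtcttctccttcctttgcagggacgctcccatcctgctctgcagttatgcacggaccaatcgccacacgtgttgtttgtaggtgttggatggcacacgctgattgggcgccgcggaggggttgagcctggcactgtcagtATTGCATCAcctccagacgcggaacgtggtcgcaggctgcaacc
Tars, chr15:11399609-11399908, minus strand: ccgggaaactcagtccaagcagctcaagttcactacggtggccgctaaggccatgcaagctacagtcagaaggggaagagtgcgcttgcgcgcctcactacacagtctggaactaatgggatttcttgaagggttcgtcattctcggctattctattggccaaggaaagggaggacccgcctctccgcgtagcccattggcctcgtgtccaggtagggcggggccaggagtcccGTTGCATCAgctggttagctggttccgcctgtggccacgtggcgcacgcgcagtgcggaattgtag
Yars, chr4:129189653-129189952, plus strand: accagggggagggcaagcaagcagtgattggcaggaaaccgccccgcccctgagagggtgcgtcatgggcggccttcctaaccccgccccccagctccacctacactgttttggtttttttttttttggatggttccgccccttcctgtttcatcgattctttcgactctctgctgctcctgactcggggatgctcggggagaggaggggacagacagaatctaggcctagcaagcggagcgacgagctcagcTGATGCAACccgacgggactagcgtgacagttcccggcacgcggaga
Dars, chr1:128417367-128417666, minus strand: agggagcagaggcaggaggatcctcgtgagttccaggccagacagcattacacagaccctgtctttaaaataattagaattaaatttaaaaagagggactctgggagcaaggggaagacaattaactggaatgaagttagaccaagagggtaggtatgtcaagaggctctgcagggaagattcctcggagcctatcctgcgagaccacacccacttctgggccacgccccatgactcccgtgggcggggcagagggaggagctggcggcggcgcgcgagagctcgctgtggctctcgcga

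All matches lay within 113 bases of the RefSeq start. For Aars and Yars this start lies downstream of the gene's first base as given above. The Aars gene begins at 111033144, whereas its promoter window begins at 111033592. The Yars gene begins at 129189760, inside its window but before the RefSeq start. In Aars 1 match began 113 bases before the start and another 8 bases after it. In Gars the match began 31 bases before the start and in Tars 16 bases before it, and in Iars and Yars it began 6 and 3 bases after it. The 5 genes had log2 ratios from -0.77 to -0.43 with a median of -0.61, and the 8 cytosolic genes whose promoters held no match had ratios from -0.74 (Eprs) to 0.19 (Dars) with a median of -0.21. The ranges overlapped, Eprs and Sars having ratios as low as genes with a match. The 7 cytosolic genes with no promoter entry had ratios from -1.41 (Wars) to 0.30 (Hars) with a median of -0.51. Whether they carry a match is unknown, and the difference between these medians was not tested. The cAMP response element TGACGTCA was in none of the members' promoters, in 3.24% of those of genes in the table and in 1.79% of all. The E-box CACGTG was in those of Aars, Farsb, Iars, Tars and Ears2, in 10.2% of those of genes in the table and in 7.15% of all, and overlapped none of the other matches. A match describes letters in the window, and binding was not measured.

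The genes around ATF4 and amino acid supply had log2 ratios below the median of all genes too. Among all genes 13.4% were at least 1.5-fold lower and 10.8% at least 1.5-fold higher, and the counts of each list are to be read beside these shares. Of 11 regulators of the ATF4 pathway 9 were below 0 and 6 at least 1.5-fold lower, with a median of -0.66. Atf4 itself had 563 FPKM with the control and 406 FPKM with the antagomir (-0.47). Ppp1r15a, which encodes the phosphatase subunit that reverses eIF2alpha phosphorylation, had 112 and 23.7 FPKM (-2.19). Of 10 amino acid transporters with values 9 were at least 1.5-fold lower and 1, Slc36a1, was higher, and their median was -1.29. Slc7a1, a carrier of arginine and lysine, had 19.8 and 5.55 FPKM (-1.67), and Slc1a4, a carrier of alanine, serine and cysteine, had 50.3 and 16.9 FPKM (-1.52). Of 14 genes of amino acid synthesis with values 7 were 1.5-fold lower and none higher, with a median of -0.53. Cth, which makes cysteine, had 92.2 and 41.3 FPKM (-1.14), and Aldh18a1, which begins proline synthesis, had 65.1 and 31.8 FPKM (-1.01). The median of the cytosolic synthetases, -0.44, thus lay closer to 0 than that of the transporters and near that of the synthesis genes. These lists were not tested against each other.

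Other genes that act on tRNA or in translation had list medians nearer to or above 0. Of 11 further genes of tRNA charging and editing 8 were above 0, with a median of 0.32. Of these 11 genes 2 were 1.5-fold higher and none was 1.5-fold lower, against 10.8% and 13.4% of all genes. Dtd2 and Dtd1, which remove D-amino acids from tRNA, had 6.79 and 10.8 FPKM (0.60), and 9.12 and 14.0 FPKM (0.57). Of the 3 subunits of the mitochondrial glutaminyl-tRNA route, Qrsl1 had 5.81 and 8.73 FPKM (0.52), Gatb 2.79 and 3.63 FPKM (0.29), and Gatc 25.5 and 17.0 FPKM (-0.56). The subunits of this 1 enzyme thus did not go the same way. In the tRNA processing and modification list the median over 31 genes was -0.05, with 21 genes below 0 and 10 above. Of these 31 genes 2 were 1.5-fold lower and 2 higher, against 13.4% and 10.8% of all genes. Elac2, which trims the 3′ end of tRNA precursors, had 19.1 and 10.2 FPKM (-0.84), Mettl1, a tRNA methyltransferase, had 21.8 and 12.5 FPKM (-0.76), and Xpot, the export receptor for tRNA, had 49.5 and 34.0 FPKM (-0.53). The splicing endonuclease genes Tsen34 and Tsen54 were at 0.65 and 0.62.

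Translation factors stood near the median of all genes. The 9 cytosolic elongation and termination factors with values had a median of -0.06, with 6 below 0 and 1, the ribosome recycling factor gene Abce1, 1.5-fold lower at 29.9 and 19.3 FPKM. The 10 mitochondrial translation factors had a median of -0.01, with 1, Tufm, 1.5-fold lower at 25.8 and 15.4 FPKM. These counts, 1 of 9 and 1 of 10, stand beside 13.4% of all genes. Tufm encodes the elongation factor that brings charged tRNA to the mitochondrial ribosome. Genes of cytosolic and mitochondrial ribosomal proteins, taken by symbol, had medians of 0.53 over 81 genes and 0.23 over 78 genes. The cytosolic synthetases therefore had a median below those of the other lists of the translation machinery, and the mitochondrial synthetases had one close to that of the mitochondrial translation factors. Transcript length moved with the log2 ratio over all genes, and its trend was not removed from these list medians. The part of length in the gaps between lists was not tested.

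**Figure D5:**
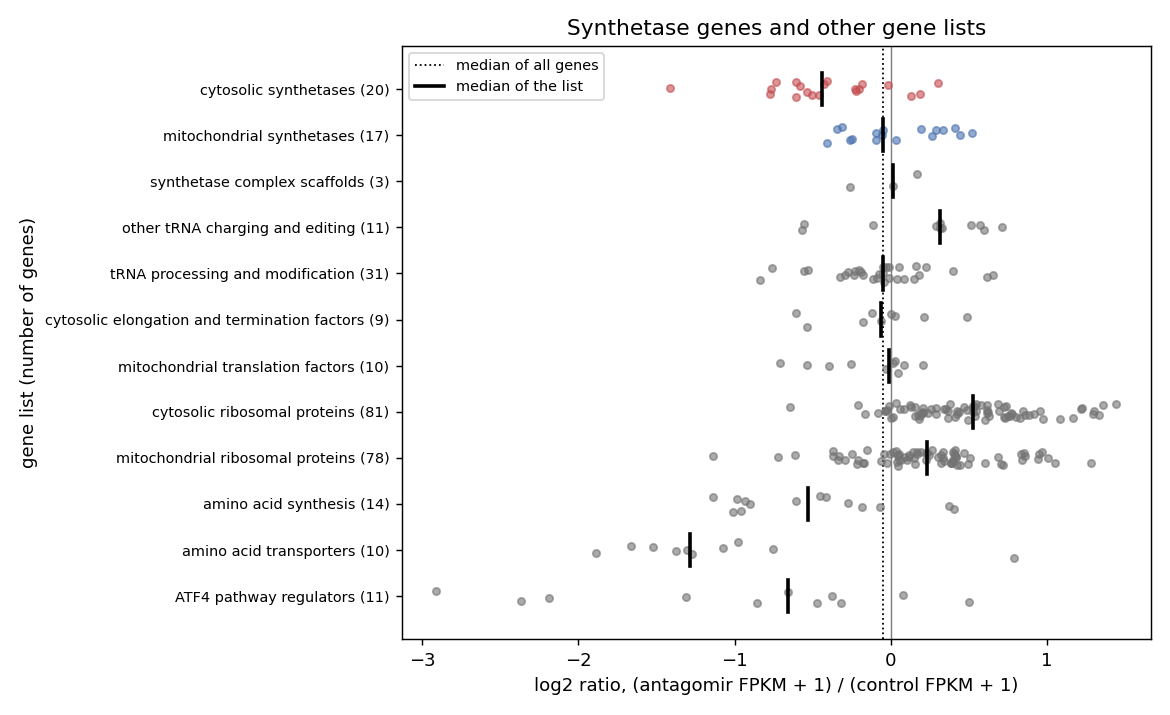
Log2 ratio of each gene (points) in the 2 synthetase groups and 10 other lists, with the number of genes in brackets; the thick bar is the list's median and the dotted line the median of all genes. Cytosolic synthetases (-0.44) sit with amino acid synthesis (-0.53) left of the dotted line, and mitochondrial synthetases (-0.05) sit on it.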

How the data were processed

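The data were 2 libraries, control and antagomir, grouped by their titles. The authors deposited 1 table of FPKM per gene, made, per the submitters' processing notes, with cutadapt, HISAT2 and StringTie 1.3.3 on GRCm38; no source used here gives the annotation release, settings or use of strand. Per the labels' protocols, libraries came from a poly(A) selection and a stranded kit, but adaptor ligation at both RNA ends, a small RNA step, is listed too, so the library type is not settled. Values for 10 symbols on more than 1 line were summed. Low FPKM values multiplied by transcript length showed no steps of whole reads (at best 15.1% and 13.8% of them whole within 0.05), so depth is unknown.

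Log2 ratios used a pseudocount of 1, which understates differences of low genes, and lists and counts used genes reaching 1 FPKM in the higher library. Folds are on the same scale unless stated. Lengths, GC content and exon overlaps came from GENCODE release M21, in which overlaps on either strand were counted. The length and GC trend was a polynomial of degree 3 fitted to 10192 genes. Promoters came from RefSeq (GRCm38.p6). Values of 1 mitochondrial member are not reported here, although counts and medians include it; every other member was described, and in other lists up to 3 members at either end reaching 5 FPKM were named, and Gatb, Slc36a1, Lyz2 and Hba-a1 were named after their values were seen. Members and lists were chosen with earlier results of these data known. Scripts (Python 3.11.15, pandas 2.3.3, numpy 2.4.6, scipy 1.17.1, matplotlib 3.10.9) were tested on simulated data.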

Additional observations from a re-analysis of the deposited data

How the results depend on the processing

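The cytosolic median log2 ratio lay between -0.53 and -0.39, and the cytosolic minus mitochondrial gap between -0.48 and -0.35, over pseudocounts of 0.1 and 0.01, no minimum or 5 FPKM, TPM, centring, rescaling without abundant families, both trend removals, means, and without overlapping genes or Gars and Kars. The mitochondrial median changed sign with centring (0.0020), with the length and GC trend removed (0.066), with the trend over principal transcripts removed (0.089, added after seeing the data) and as a mean (0.038). Cytosolic genes 1.5-fold lower numbered 3 of 20 with the principal transcript trend removed, against 12.3% of all genes, 4 with centring, against 11.6%, and 9 as TPM, against 20.0%. Over all genes 1364 were 1.5-fold lower and 1104 higher, but 2037 and 1071 as TPM. No mitochondrial gene was 1.5-fold lower under any of these settings. Of the 37 genes 33 kept their sign in all settings run for single genes; Qars, Mars2, Sars2 and Wars2 did not. No paired analysis was possible because each group is 1 library. Leaving out a library was not possible for the same reason, and unknown depth gives no counting error, which weighs most on the mitochondrial genes near 1 FPKM.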
